A study of Macaca mulatta with 12 samples.

Results

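Solute carriers, named SLC with a family number or SLCO, are membrane proteins that move sugars, amino acids, ions, metals, vitamins and organic molecules across the plasma membrane and the membranes of vesicles, lysosomes and the Golgi. Some run downhill as facilitators and others draw on a sodium or proton gradient. In a gland such as the corpus luteum, which is densely supplied with capillaries and makes progesterone from cholesterol, they bring in fuel, building blocks and metal cofactors. In cells that take up and digest debris, lysosomal members return amino acids and nucleosides to the cytosol.

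The carriers described here are all genes whose single symbol in the array's annotation starts with SLC and a digit or with SLCO, without the mitochondrial SLC25A family, SLC17A4 and SLCO2A1. Each gene was read on its probe set with the highest mean, and a gene was kept when that mean over all 12 arrays was at least 6 on the log2 scale, so the members were selected on their mean level. Of 290 symbols that matched, 37 were left out by name, and 87 of the other 253 reached the limit, among 14132 genes on the array with 1 symbol. That level is averaged over all 3 groups, and a high signal is therefore no finding about them. SLC6A3 lay just inside the limit at 6.04 and SLC26A1 just outside at 5.97. The 87 carriers were sorted by family number into 10 classes, the largest being 18 carriers of amino acids and peptides and 13 of nucleotide sugars. For members whose substrate is not known, the class is that of the family.

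The arrays measured mRNA in whole corpora lutea of female rhesus macaques with normal menstrual cycles, 4 glands to a group. Late regressed glands came from days 14 to 16 after the luteinizing hormone surge, in animals whose serum progesterone lay below 0.5 ng/ml. Late functional glands came from the same days, in animals whose serum progesterone lay above 1.5 ng/ml. Mid-late glands, the baseline of the study, came from days 10 to 12. The labels call the 4 glands of each group biological replicates and give no treatment, age or batch. In whole glands, fewer cells of a type and less RNA per cell cannot be told apart.

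All values are normalized log2 intensities, in which 1 unit is a doubling, and a level can be compared between arrays for 1 probe set but not between genes. Luteal markers were present: STAR, which delivers cholesterol to the mitochondrion, averaged 12.8 over the arrays, and HSD3B2, which makes progesterone, averaged 10.1. HSD3B2 was lower by 3.11 in late regressed than in mid-late glands, with a limma adjusted p of 0.00548. Array medians lay between 4.31 and 4.43. Late regressed arrays 2 and 3 stood apart, with scores of 93.2 and 81.6 on a first principal component that held 40.8% of the variance, against -43.0 to 12.6 for the other 10 arrays. Array 2 also had a difference between 3' and 5' control probe sets of 2.52, against 0.462 to 0.699 on the others. The mean of 674 probe sets named NC was 3.48 to 3.58 on late regressed, 3.53 to 3.61 on late functional and 3.65 to 3.75 on mid-late arrays, so it was lower in both late groups. The part of RNA quality and of this low signal in the results was not tested beyond the values given below.

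In late regressed against mid-late glands, 7 carriers rose and 5 fell, and 75 did not pass the test (limma, adjusted p below 0.05 over 52707 probe sets). The carriers that rose were SLC15A4, SLCO2B1, SLC29A3, SLC38A9, SLC35D2, SLC22A5 and SLC66A1. Those that fell were SLC33A2, SLC38A10, SLC39A8, SLC50A1 and SLC31A1. The 7 that rose are 8.05% of the carriers, against 5.41% of all probe sets and 12.7% of the 6929 genes with a mean of at least 6. The 5 that fell are 5.75%, against 4.61% of all probe sets and 4.6% of those genes. In both directions together 13.8% of the carriers were called, against 10% and 17.3%. At an unadjusted p below 0.05 there were 28, or 32.2%, against 29.6% and 41.9%. Groups did not overlap for 10 carriers that were higher, against 7.99% and 17.4%, and for 4 that were lower, against 9.26% and 7.22%. These shares lie near the background, so the counts are no result about carriers as a group. The median difference over the 87 was 0.02, against 0.09 over the genes at the same limit and -0.04 over all probe sets.

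The calls rested in part on single arrays, and the next values give the number that rose and fell when 1 array was left out. They were 10 and 11 without late regressed array 1, 3 and 1 without array 2, 2 and 0 without array 3, and 10 and 8 without array 4. They were 3 and 2 without mid-late array 1, 1 and 0 without array 2, and 5 and 2 without array 3 or without array 4. Leaving out 1 late functional array gave 5 to 8 that rose and 4 to 6 that fell. The shares of all probe sets called by these fits are not given here, so the counts are no result about carriers as a group. In the 12 fits that leave out 1 array, the call was kept in 12 for SLC15A4, 10 for SLC39A8 and SLC35D2, 9 for SLC29A3 and SLC22A5, and 8 for SLC33A2. It was kept in 7 for SLC38A9 and SLC50A1, 6 for SLC31A1, 5 for SLC38A10, 4 for SLCO2B1 and 3 for SLC66A1. Without late regressed arrays 2 and 3 together, calls over all 52707 probe sets dropped from 5282 to 975, so the loss was not particular to carriers. In that fit 1 carrier rose and 1 fell. These were SLC15A4, by 0.81 with an adjusted p of 0.0467, and SLC39A8, lower by 0.72 with an adjusted p of 0.0424, both called over all 12 arrays as well. With the NC mean of each array as a covariate, 0 carriers were called in either direction. The NC mean does not overlap between late regressed and mid-late arrays, so this covariate and the groups cannot be told apart.

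**Figure D1:**
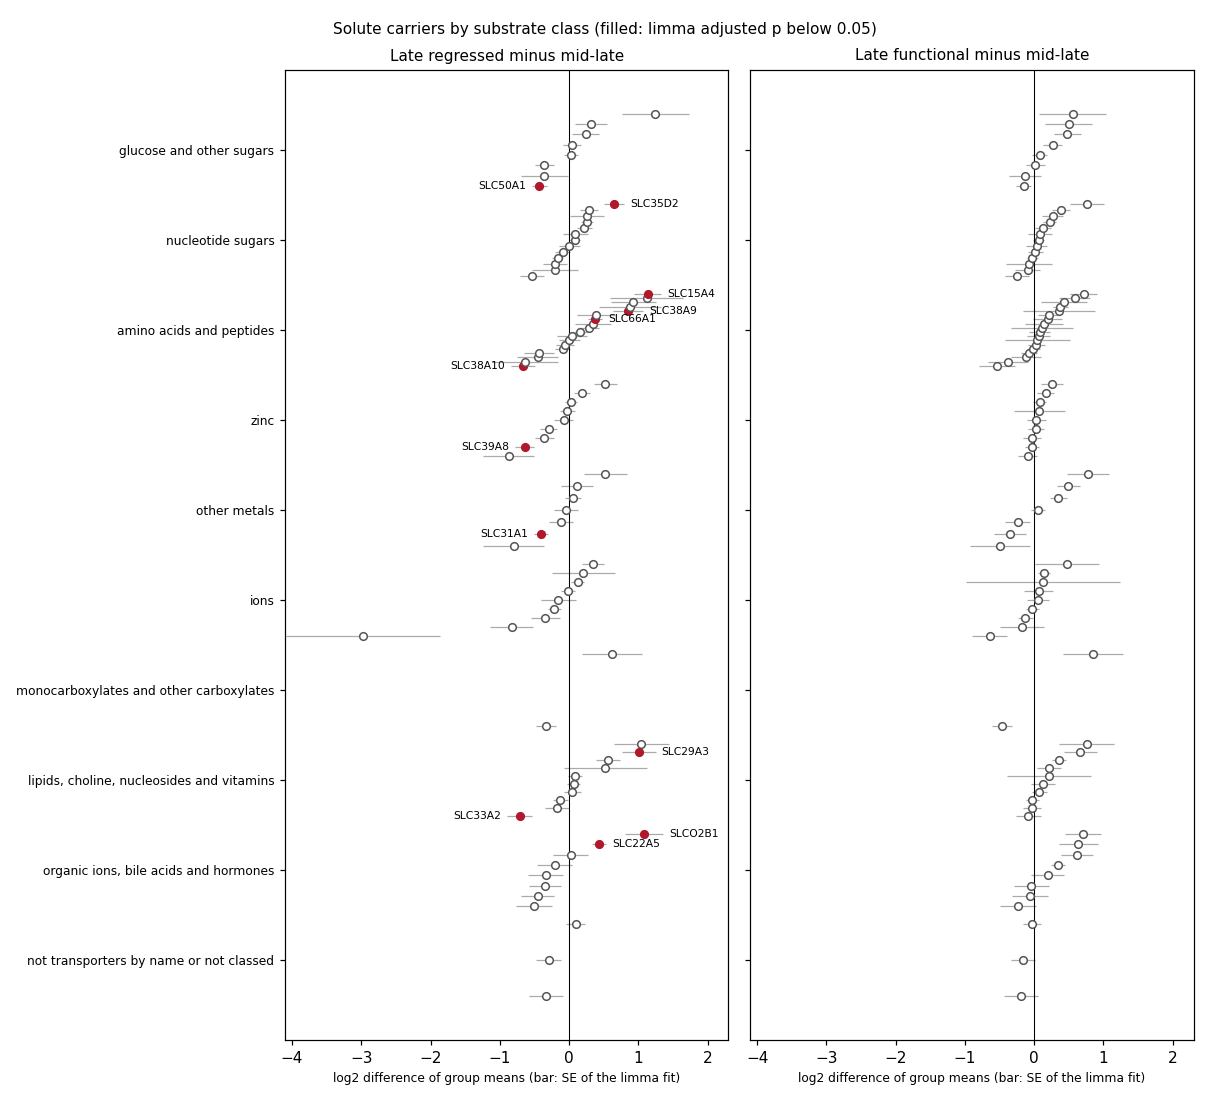
Log2 difference of group means (horizontal axis, bar: SE of the limma fit) for each of the 87 carriers by substrate class (vertical axis), with late regressed minus mid-late glands on the left and late functional minus mid-late glands on the right. Filled and named points have an adjusted p below 0.05; the 12 on the left are spread over 7 of the 10 classes, and there are none on the right.

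Among the 18 carriers of amino acids and peptides, 3 rose in late regressed glands, 1 fell and 14 did not pass. SLC15A4 carries histidine and small peptides out of endolysosomes together with protons. Its values were 7.71, 8.57, 8.32 and 7.87 on late regressed arrays 1 to 4, 7.41, 7.76, 7.57 and 8.03 on the late functional arrays, and 6.73, 7.09, 6.87 and 7.22 on the mid-late arrays. Every late regressed and every late functional array lay above every mid-late array. The means were 8.12 ± 0.40, 7.70 ± 0.26 and 6.98 ± 0.22 (SD, n = 4 each), in the same order. Late regressed glands were higher than mid-late glands by 1.14 (SE 0.194, adjusted p 0.00996), or 2.2-fold. This was the lowest adjusted p among the carriers and the one call kept when any 1 array was left out. Its dimmer probe set was also called, higher by 0.65 with an adjusted p of 0.0453.

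SLC38A9 sits on the lysosome, where it senses arginine for the growth kinase complex mTORC1. It read 6.84, 7.61, 6.93 and 6.69 in late regressed, 6.55, 7.07, 6.46 and 6.93 in late functional, and 5.77, 6.07, 6.27 and 6.56 in mid-late glands. No late regressed array fell to the highest mid-late array, and the difference was 0.85 (SE 0.222, adjusted p 0.036). SLC66A1 exports cationic amino acids from lysosomes. It read 6.40, 6.70, 6.50 and 6.59 in late regressed, 6.39, 6.64, 6.43 and 6.75 in late functional, and 6.39, 6.05, 6.08 and 6.18 in mid-late glands. The difference was 0.37 (SE 0.107, adjusted p 0.0488), and late regressed array 1 and mid-late array 1 were nearly level. Its other probe set differed by 0.03 with an adjusted p of 0.843.

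SLC38A10, of the sodium-coupled neutral amino acid family, fell. The late regressed arrays read 10.93, 10.34, 9.89 and 10.55, against 11.28, 11.22, 11.15 and 10.96 in late functional and 11.11, 11.11, 11.04 and 11.11 in mid-late glands. All 4 late regressed values lay below every value of both other groups. Against mid-late glands the difference was -0.66 (SE 0.17, adjusted p 0.0345), and without late regressed arrays 2 and 3 it was -0.35 with an adjusted p of 0.139. Of its 3 other probe sets, 1 was also called lower.

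SLC7A7, the light chain of an exchanger that exports cationic amino acids and is abundant in macrophages, did not pass. Late regressed arrays 2 and 3 read 8.45 and 8.90, while arrays 1 and 4 read 6.70 and 6.01. Late functional arrays spanned 6.53 to 6.87 and mid-late arrays 5.92 to 6.80, and the difference of 1.12 had an adjusted p of 0.178. Without late regressed array 4, the lowest of its group, the difference was 1.62 with an adjusted p of 0.0378. No other fit that leaves out 1 array called SLC7A7. SLC38A6 had the same layout, with 8.13 and 8.42 on late regressed arrays 2 and 3, and 5.89 and 6.76 on arrays 1 and 4. SLC7A8, a large neutral amino acid exchanger, went the other way on them, at 5.34 and 5.74 against 8.09 and 6.61 on arrays 1 and 4, and its difference of -0.64 had an adjusted p of 0.392. SLC43A3, which carries purine nucleobases although its family is one of amino acid carriers, read 8.54 to 9.25 in late regressed, 8.78 to 9.36 in late functional and 8.61 to 9.54 in mid-late glands.

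The carriers of lipids, choline, nucleosides and vitamins numbered 10, of which 1 rose and 1 fell. SLC29A3 moves nucleosides out of lysosomes. It read 7.47, 7.97, 8.58 and 7.26 in late regressed, 7.47, 7.32, 7.72 and 7.38 in late functional, and 6.48, 6.86, 7.03 and 6.86 in mid-late glands. Both late groups lay wholly above mid-late glands. The difference of late regressed from mid-late glands was 1.01 (SE 0.239, adjusted p 0.0265), or 2.01-fold, and 0.56 (adjusted p 0.0874) without late regressed arrays 2 and 3. SLC33A2 read 6.90, 6.03, 6.18 and 6.56 in late regressed, 7.17, 7.09, 6.96 and 6.96 in late functional, and 7.16, 7.46, 6.89 and 7.01 in mid-late glands. Late regressed array 1 overlapped mid-late array 3, and the other 3 lay lower. It was lower by 0.71 in late regressed than in mid-late glands (SE 0.177, adjusted p 0.0305), and by 0.40 (adjusted p 0.183) without arrays 2 and 3.

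Others of this class did not pass. SLC27A2, which takes up and activates fatty acids, read 7.71, 6.69, 6.50 and 6.75 in late regressed and 6.73, 5.77, 5.81 and 5.16 in mid-late glands, a difference of 1.04 with an adjusted p of 0.111. SLC27A1, another fatty acid carrier, read 7.0 to 7.16 in late regressed, 7.09 to 7.45 in late functional and 6.82 to 7.18 in mid-late glands. SLC5A6, which brings in biotin and pantothenate, lay wholly higher in late regressed glands (6.75 to 7.55) than in mid-late glands (6.27 to 6.66), and its adjusted p was 0.0574. SLC44A3, of the choline transporter-like family, had 2 single glands far from the rest: late regressed array 4 at 9.55 and late functional array 4 at 9.27, against 6.81 to 7.55 on the other 10 arrays. The riboflavin transporter SLC52A2 differed by 0.07 (adjusted p 0.661), while 1 of its other probe sets was called, at -0.40 with an adjusted p of 0.0231. The choline carrier SLC44A2 differed by -0.18 (adjusted p 0.535), and its next probe set, with a mean of 8.10, by -0.17 (adjusted p 0.69). Its dimmest probe set, with a mean of 7.10, went the other way, and both late groups lay wholly above mid-late glands on it. There the differences from mid-late glands were 1.16 (adjusted p 0.0675) in late regressed and 1.34 (adjusted p 0.0988) in late functional glands.

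Other carriers with a known role in lysosomes or related vesicles did not pass. SLC15A3, a close relative of SLC15A4, read 7.52, 7.63, 9.06 and 7.35 in late regressed glands, 7.46, 7.38, 7.39 and 7.33 in late functional glands and 6.31, 7.14, 7.12 and 7.27 in mid-late glands. Both late groups lay above mid-late glands, with 1 late regressed array far above, and the difference of 0.93 had an adjusted p of 0.0879. SLC48A1, which releases heme from lysosomes, spread from 5.95 to 8.63 in late regressed glands, with the lowest value on array 2. It read 7.04 to 7.62 in late functional and 7.61 to 8.37 in mid-late glands. Late regressed glands differed from mid-late glands by -0.80 (adjusted p 0.24). Its other probe set, with a mean of 6.75, differed by -0.02 (adjusted p 0.931). SLC46A3 differed by -0.12 with an adjusted p of 0.7, and SLC11A1 is described with the metal carriers.

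**Figure D2:**
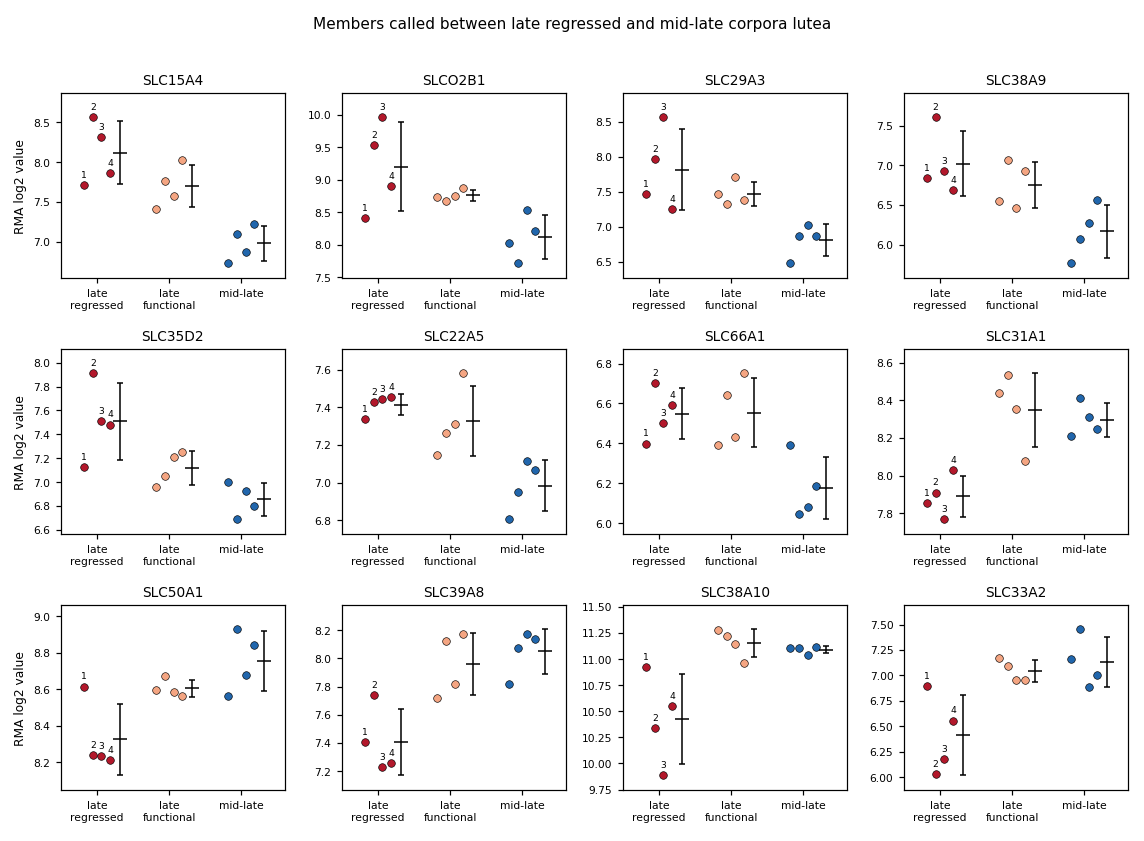
Normalized log2 intensity (vertical axis) on each array for the 12 carriers called in late regressed against mid-late glands, with late regressed, late functional and mid-late groups from left to right; each point is 1 gland and each bar the group mean ± SD, and numbers mark the late regressed arrays. SLC15A4 and SLC29A3 are higher in both late groups than in mid-late glands, while SLC38A10 and SLC31A1 are lower in late regressed glands than in both other groups.

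Of the 8 carriers of organic ions, bile acids and hormones, 2 rose. SLCO2B1 takes up organic anions, among them steroid sulfates. It read 8.41, 9.54, 9.97 and 8.90 in late regressed, 8.73, 8.68, 8.76 and 8.87 in late functional, and 8.03, 7.73, 8.53 and 8.21 in mid-late glands. Late regressed array 1 lay within the mid-late range and arrays 2 and 3 lay highest. The difference from mid-late glands was 1.08 (SE 0.28, adjusted p 0.0351), and 0.53 (adjusted p 0.168) without arrays 2 and 3. A further probe set of SLCO2B1, with a mean of 8.18 against the 8.70 of the one used, differed by 0.08 with an adjusted p of 0.799, so the probe sets of this gene disagree.

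SLC22A5, the sodium-dependent carnitine transporter that cells need for burning long-chain fatty acids, had the tightest late regressed values of the called carriers. They were 7.34, 7.43, 7.44 and 7.45, against 7.15, 7.26, 7.31 and 7.58 in late functional and 6.81, 6.95, 7.12 and 7.07 in mid-late glands. Both late groups lay above every mid-late array. The difference from mid-late was 0.43 (SE 0.0981, adjusted p 0.0234), and 0.41 (adjusted p 0.117) without late regressed arrays 2 and 3. A second probe set with a mean of 3.99, below the 95th percentile of the NC probe sets (4.75), was called the other way, at -0.23 with an adjusted p of 0.0394.

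SLC47A1, which extrudes organic cations, was highest in late functional glands. It read 7.64, 7.18, 6.92 and 7.82 in late regressed, 8.0, 8.28, 8.33 and 8.79 in late functional, and 7.66, 7.28, 7.99 and 7.99 in mid-late glands. Late functional glands lay wholly above both other groups, by 0.62 over mid-late (adjusted p 0.183), and late regressed glands lay 0.96 below them (adjusted p 0.187). SLCO3A1, an organic anion carrier, had a similar order, with 7.25, 6.58, 5.65 and 6.61 in late regressed, 7.30, 7.29, 7.25 and 6.99 in late functional, and 6.48, 6.76, 6.29 and 6.48 in mid-late glands. Neither was called in any of the 3 comparisons. SLC22A17, a receptor for the iron-binding protein lipocalin 2, read 7.84 and 7.35 on late regressed arrays 2 and 3, and 8.53 to 8.82 on the other 10 arrays.

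Among 8 sugar carriers 1 fell. SLC50A1, the mammalian relative of the plant SWEET sugar carriers, read 8.61, 8.24, 8.23 and 8.21 in late regressed, 8.59, 8.67, 8.59 and 8.56 in late functional, and 8.56, 8.93, 8.68 and 8.84 in mid-late glands. Late regressed array 1 reached the mid-late range and the other 3 lay below both other groups. The difference was -0.43 (SE 0.105, adjusted p 0.0291). SLC2A3, a high-affinity glucose facilitator, read 7.42, 7.57, 8.38 and 6.95 in late regressed, 7.28, 7.27, 6.93 and 7.0 in late functional, and 7.12, 7.37, 7.37 and 7.19 in mid-late glands. The groups overlapped, and the difference from mid-late glands of 0.32 had an adjusted p of 0.383. SLC2A10 differed by 0.24 with an adjusted p of 0.429.

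The fructose carrier SLC2A5 had 2 glands apart. Late regressed arrays 2 and 3 read 7.85 and 7.80, while arrays 1 and 4 read 5.73 and 5.39. Late functional arrays spanned 5.75 to 6.17, wholly above the mid-late range of 5.21 to 5.71. The difference of late regressed from mid-late glands was 1.24 with an adjusted p of 0.114. Its mean of 6.05 reached the limit of 6 only through late regressed arrays 2 and 3, as the other arrays read 5.21 to 6.17. The gene was thus selected on the arrays where it was high, and this difference is no support for a rise. Another SLC2A5 probe set, with a mean of 5.69 against the 6.05 of the one used, was called the other way, at -0.31 with an adjusted p of 0.0412. SLC45A2, best known from the melanosomes of pigment cells, read 12.65, 12.22, 12.02 and 12.67 in late regressed, 12.62 to 12.87 in late functional and 12.65 to 12.90 in mid-late glands. Its 2 other probe sets averaged 4.02 and 3.07, below the 95th percentile of the NC probe sets, and which transcript the bright one reads was not tested.

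Of 13 members of the nucleotide sugar family, which feed the glycosylation and sulfation enzymes of the Golgi and endoplasmic reticulum, 1 rose. SLC35D2, a carrier of UDP-linked sugars, read 7.12, 7.92, 7.51 and 7.48 in late regressed, 6.96, 7.05, 7.21 and 7.26 in late functional, and 7.0, 6.69, 6.92 and 6.80 in mid-late glands. Late regressed glands lay wholly above mid-late glands, by 0.65 (SE 0.145, adjusted p 0.0211). SLC35B2, which carries the sulfate donor into the Golgi, lay wholly higher in late regressed glands, at 7.46 to 7.77, than in mid-late glands, at 7.21 to 7.42. Its difference of 0.26 had an adjusted p of 0.0791. SLC35A1, the carrier of CMP-sialic acid, differed by 0.22 (adjusted p 0.196) on its brightest probe set, while another of its 4 probe sets was called, higher by 1.05 with an adjusted p of 0.0171. SLC35B1, which carries ATP into the endoplasmic reticulum, differed by 0.01 (adjusted p 0.985), and SLC35B3, another carrier of the sulfate donor, by -0.10 (adjusted p 0.607).

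Of 9 zinc carriers 1 fell. SLC39A8, which brings in zinc and manganese, read 7.41, 7.74, 7.23 and 7.26 in late regressed, 7.72, 8.12, 7.82 and 8.17 in late functional, and 7.82, 8.08, 8.17 and 8.14 in mid-late glands. Late regressed glands lay wholly below mid-late glands. The difference was -0.64 (SE 0.138, adjusted p 0.0192), and 1 of the 4 other probe sets, with a mean of 7.44, was called as well, at -0.57 with an adjusted p of 0.0115. SLC39A6, another zinc importer, lay wholly higher in late regressed glands (7.37, 8.30, 7.80 and 7.54) than in mid-late glands (7.19 to 7.28), with a difference of 0.52 and an adjusted p of 0.0599. Its other probe sets differed by 0.14 (adjusted p 0.535), -0.23 (adjusted p 0.302) and 0.14 (adjusted p 0.336). SLC39A4, the importer of dietary zinc in the gut, spread from 6.13 to 7.84 in late regressed, 7.40 to 8.60 in late functional and 7.45 to 8.19 in mid-late glands. SLC30A7, which loads zinc into the Golgi, differed by -0.08 with an adjusted p of 0.718.

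Of the 7 carriers of copper, iron, heme and other metals apart from zinc, 1 fell. SLC31A1, the main copper importer, read 7.85, 7.91, 7.77 and 8.03 in late regressed, 8.44, 8.53, 8.35 and 8.08 in late functional, and 8.21, 8.41, 8.31 and 8.25 in mid-late glands. The late regressed arrays were the 4 lowest of the 12. The difference from mid-late glands was -0.40 (SE 0.1, adjusted p 0.0303), and both other probe sets were called lower too, by 0.73 (adjusted p 0.0119) and 0.65 (adjusted p 0.0326). Against late functional glands the difference was -0.46, and its adjusted p of 0.154 was the lowest among the carriers in that comparison.

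SLC40A1, ferroportin, is the exporter of iron from cells. It read 9.80, 9.07, 9.89 and 10.31 in late regressed, 9.80, 9.74, 9.69 and 10.85 in late functional, and 9.30, 8.85, 9.74 and 9.07 in mid-late glands. The groups overlapped, with differences from mid-late glands of 0.52 (adjusted p 0.275) in late regressed and 0.78 (adjusted p 0.202) in late functional glands. SLC11A1, which pumps divalent metals out of the phagosomes of macrophages, was highest in late functional glands, at 8.24, 8.32, 8.27 and 8.70. It read 8.38, 7.58, 7.60 and 7.81 in late regressed and 8.08, 7.89, 7.76 and 7.83 in mid-late glands. Late functional glands lay wholly above mid-late glands by 0.49 (adjusted p 0.153), while late regressed glands differed from mid-late glands by -0.05 (adjusted p 0.881).

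None of the 9 ion carriers passed in late regressed against mid-late glands. SLC26A2, the sulfate transporter that cartilage and other matrix-making tissues depend on, had the largest difference among the 87. It read 10.86, 9.26, 8.23 and 3.68 on late regressed arrays 1 to 4, 11.28, 11.35, 11.04 and 10.75 in late functional, and 11.12, 10.79, 10.99 and 11.02 in mid-late glands. Late regressed glands ran from the mid-late range down to a value below the 95th percentile of the NC probe sets (4.75). The mean of 8.01 ± 3.08 lay 2.97 below the mid-late mean of 10.98 ± 0.14 (SD, n = 4 each), with an SE of 1.11 and an adjusted p of 0.102. Without late regressed array 1, the one nearest the mid-late level, the difference was -3.92 with an adjusted p of 0.0251. No other fit that leaves out 1 array called SLC26A2.

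The 5 probe sets of SLC26A2 disagreed on late regressed array 4. The second brightest read 9.83, 9.0, 7.86 and 9.86 there, with array 4 at the mid-late level of 9.73 to 10.24. The third read 9.79, 7.46, 7.26 and 3.96, and again array 4 was the lowest. The remaining ones read 7.51 and 5.70 on array 4, within their mid-late ranges of 7.32 to 9.34 and 4.70 to 7.72. Arrays 2 and 3 were below the mid-late range on all of the 3 brightest probe sets, whereas array 4 was below it on 2 of them. What sets these probe sets apart on array 4 was not tested.

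**Figure D3:**
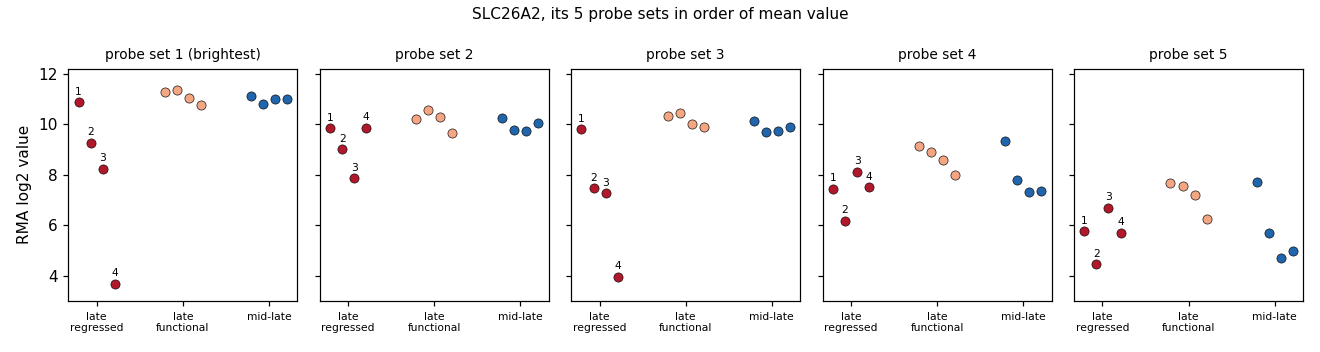
Normalized log2 intensity (vertical axis) of the 5 probe sets of the sulfate transporter SLC26A2 (1 panel each, in order of mean) in late regressed, late functional and mid-late glands from left to right; each point is 1 gland and numbers mark the late regressed arrays. On late regressed array 4 the brightest probe set drops to 3.68 and the third to 3.96, while the second stays at 9.86.

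The remaining ion carriers varied less. SLC4A7, a sodium and bicarbonate cotransporter, read 10.29 to 11.65 in late regressed, 11.29 to 11.52 in late functional and 11.28 to 11.40 in mid-late glands. The difference was -0.34 with an adjusted p of 0.296. Without late regressed array 4, the highest of its group, it was -0.57 with an adjusted p of 0.0375. No other fit that leaves out 1 array called SLC4A7. Its second brightest probe set, with a mean of 10.9 against the 11.2 of the one used, went the other way, at 0.15 with an adjusted p of 0.629. SLC12A4, a potassium and chloride cotransporter that helps set cell volume, read 7.51, 5.67, 6.76 and 7.38 in late regressed and 7.48 to 7.80 in mid-late glands (difference -0.83, adjusted p 0.107). Its lowest value was on late regressed array 2. SLC20A1, a phosphate importer, read 7.98, 8.74, 9.11 and 8.55 in late regressed, 8.17, 8.32, 7.86 and 8.08 in late functional, and 8.21, 9.09, 8.51 and 9.18 in mid-late glands. Late functional array 2 and mid-late array 1 overlapped and the other late functional values lay lower than every mid-late value. The difference between these groups of -0.64 had an adjusted p of 0.201.

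Only 2 of the 15 measured carriers of monocarboxylates and other carboxylates reached the level limit, and neither was called. SLC16A1, which moves lactate, pyruvate and ketone bodies, read 7.58, 6.24, 6.35 and 7.38 in late regressed, 6.40, 6.89, 6.64 and 8.54 in late functional, and 6.16, 6.08, 6.56 and 6.30 in mid-late glands. Late regressed arrays 1 and 4 and late functional array 4 were high and the others near the mid-late range, and the differences from mid-late glands were 0.61 (adjusted p 0.369) and 0.84 (adjusted p 0.322). SLC16A9, of the same family, read 7.11, 6.97, 7.08 and 6.95 in late regressed, 6.67, 6.73, 6.73 and 7.44 in late functional, and 7.39, 7.35, 7.28 and 7.41 in mid-late glands. Late regressed glands lay wholly below mid-late glands by 0.33 (adjusted p 0.151), as did 3 of the 4 late functional glands. Late functional array 4, at 7.44, lay far from the other late functional arrays. Without it, late functional glands were called lower than mid-late glands, by 0.65 with an adjusted p of 0.00904. Late regressed glands were called lower too, with an adjusted p of 0.0154, although their difference stayed at 0.33. No other fit that leaves out a single array called SLC16A9. That fit drops the array that went against the call, which lowers the spread behind both tests. These calls are therefore no support for a fall.

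The 3 genes placed in no substrate class did not pass either. SLC18B1, a vesicular polyamine carrier, differed by -0.29 (adjusted p 0.29). SLC7A6OS and SLC2A4RG bear the symbol of a carrier but are not carriers themselves, and they differed by 0.09 (adjusted p 0.67) and -0.34 (adjusted p 0.382).

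In late functional against mid-late glands, 0 of the 87 carriers passed the test, against 0.332% of all probe sets higher and 0.56% lower, or 0.892% together, and against 0.851% and 0.332%, or 1.18% together, of the genes at the same limit. At an unadjusted p below 0.05 there were 18, or a share of 20.7%, against 18.7% of all probe sets and 19.4% of the genes at the same limit. The lowest adjusted p was 0.094, for SLC15A4, higher by 0.72. Groups did not overlap for 13 carriers that were higher, against 7.68% of all probe sets and 16.7% of the genes at the same limit, and for 0 that were lower, against 8.53% and 4.99%. The 13 are 14.9% of the carriers, which is near the share at the same limit. They include the lysosomal SLC15A4, SLC15A3 and SLC29A3, the phagosomal SLC11A1, the organic ion carriers SLCO2B1, SLCO3A1, SLC22A5 and SLC47A1, and SLC2A5. With late regressed arrays 2 and 3 left out of the fit, 4 carriers were called higher: SLC15A4, SLC29A3, SLCO3A1 and SLC2A5. Of these, SLC2A5 reached the level limit only through the arrays left out. The share of all probe sets called in this comparison by that fit is not given here, so the 4 are no result about carriers as a group.

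In late regressed against late functional glands, which share their days, 0 of the 87 passed, against 0.0019% of all probe sets, which is 1 of 52707, and 0.0144% of the genes at the same limit. At an unadjusted p below 0.05 there were 21, or 24.1%, against 11.8% of all probe sets and 23.7% of the genes at the same limit. Groups did not overlap for 5 carriers that were lower, against 2.47% of all probe sets and 4.32% of those genes, and for 0 that were higher, against 2.33% and 3.43%. The 5 are 5.75% of the carriers: SLC38A10, SLC31A1, SLC47A1, SLC33A2 and the zinc carrier SLC39A11. SLC39A11 read 6.46, 5.89, 6.16 and 6.12 in late regressed glands, against 6.63, 6.63, 6.69 and 6.53 in late functional glands. Without late regressed array 1, 4 carriers passed, all lower: SLC38A10, SLC11A1, SLC33A2 and SLC39A11. Without late functional array 4, 2 passed: SLC31A1, lower by 0.55 (adjusted p 0.0365), and SLC66A3, higher. The share of all probe sets called by either fit is not given here, so these calls are no result about carriers as a group.

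SLC66A3, of the family of SLC66A1, read 7.70, 8.03, 7.62 and 7.99 in late regressed, 6.61, 6.59, 6.77 and 7.82 in late functional, and 7.23, 7.14, 7.74 and 7.84 in mid-late glands. Late functional array 4 lay with the late regressed glands and the other 3 below all other arrays. The 2 comparisons with mid-late glands share the mid-late arrays, and the 2 comparisons with late regressed glands share those. By the F test over the 3 groups, 5 of 87 carriers passed, or 5.75%, against 4.91% of all probe sets and 8.98% of the genes at the same limit. They were SLC15A4, SLC39A8, SLC22A5, SLC38A10 and SLC31A1.

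The carriers varied most among late regressed glands. Their median SD was 0.339 in late regressed, 0.183 in late functional and 0.162 in mid-late glands, against 0.286, 0.148 and 0.138 for the genes at the same limit. The mean absolute distance of a carrier from its mid-late mean was 0.313, 0.591, 0.604 and 0.428 on late regressed arrays 1 to 4, and 0.237, 0.296, 0.271 and 0.420 on the late functional arrays. Carriers more than 1 unit away numbered 3, 19, 15 and 5 on the late regressed arrays, 0, 1, 0 and 7 on the late functional arrays, and 0 or 1 on each mid-late array. Late functional array 4 stood farther out than the other 3, with SLC44A3, SLC16A1, SLC40A1 and SLC39A4 at their highest late functional values there. Between late regressed and mid-late glands, 61 of the 87 differences had the same sign with and without late regressed arrays 2 and 3.

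**Figure D4:**
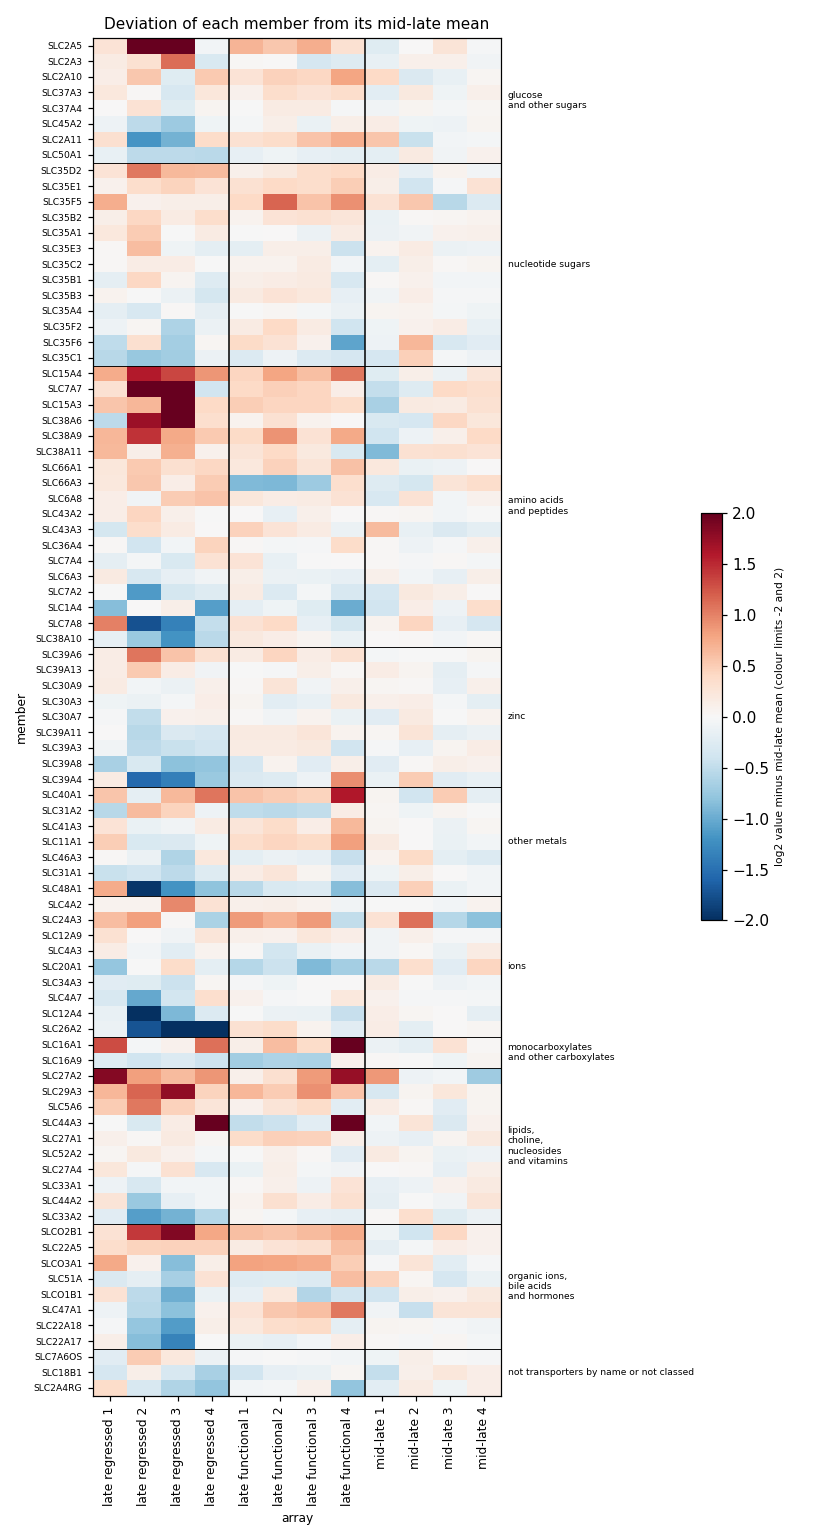
Difference of each carrier (rows, by substrate class) from its mid-late mean on each array (columns: late regressed, late functional, mid-late), in log2 units on a colour scale. The strongest colours are in late regressed columns 2 and 3, where 19 and 15 carriers lie more than 1 unit from the mid-late mean.

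Markers of other cell types were read beside the carriers. Of 15 macrophage markers 12 were measured, and their mean distance from the mid-late level was 0.70, 1.10, 2.12 and 0.34 on late regressed arrays 1 to 4, 1.03 to 1.12 on late functional arrays, and -0.72, -0.35, 0.81 and 0.26 on mid-late arrays. Of the 12, CYBB alone was called, higher in late regressed than in mid-late glands by 2.56 with an adjusted p of 0.0472, and MSR1 and ITGAM averaged below the 95th percentile of the NC probe sets. The markers did not all move one way on late regressed array 2: C1QA and C1QB read 5.73 and 6.40 there, against mid-late means of 9.06 and 8.50. The 7 measured markers of steroidogenic luteal cells lay at -1.03, -2.66, -2.94 and -1.48 on late regressed arrays, -0.31, -0.33, -0.61 and -0.87 on late functional arrays, and -0.15 to 0.15 on mid-late arrays, with 3 called lower in late regressed than in mid-late glands, against 4.61% of all probe sets. Of the endothelial markers 3 of 9, and of the fibroblast markers 4 of 8, were called higher in late regressed than in mid-late glands, against 5.41% of all probe sets and 12.7% of the genes at the same limit. The lists did not move as a whole, with median differences of 0.19 and 0.38. Lower and not called were KDR (-0.83), EMCN (-0.41), COL1A1 (-0.76), LUM (-0.79), COL3A1 (-0.47) and COL1A2 (-0.18). Of 4 measured markers of smooth muscle and pericytes, MCAM was called, at -0.88 (adjusted p 0.0434). MYH11 differed by 1.18 (adjusted p 0.0725). The part of cell composition in the carriers' values was not tested.

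**Figure D5:**
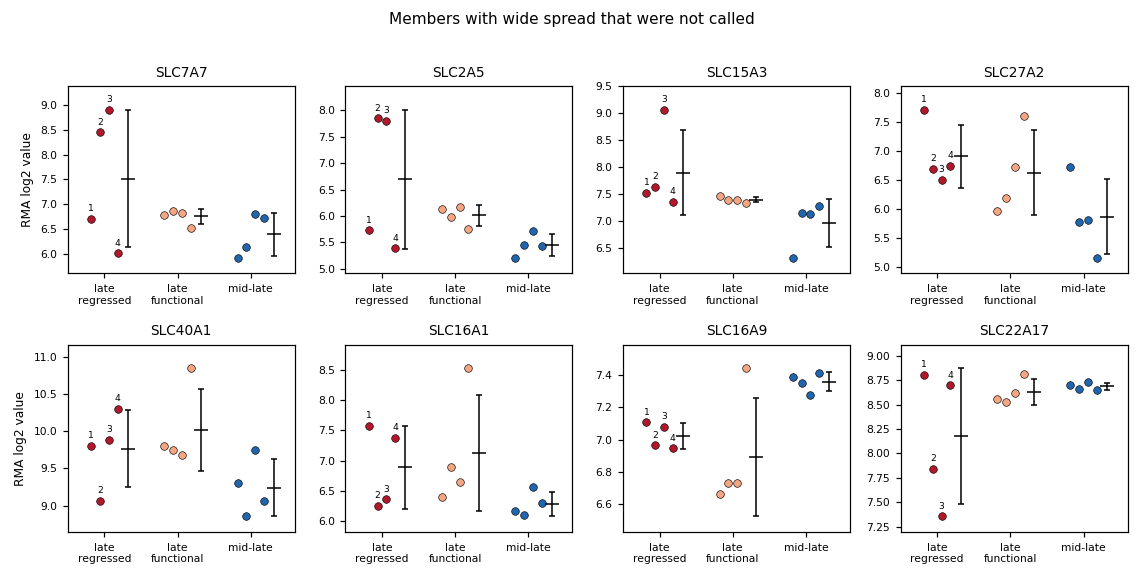
Normalized log2 intensity (vertical axis) on each array for carriers that did not pass the test and had wide or uneven groups, with late regressed, late functional and mid-late glands from left to right; each point is 1 gland and each bar the group mean ± SD, and numbers mark the late regressed arrays. SLC7A7 and SLC2A5 are high on late regressed arrays 2 and 3 alone, and SLC22A17 is low on the same 2 arrays.

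Genes that work beside the carriers were read from a list of 37 subunits, regulators and enzymes, of which 25 were measured. In late regressed against mid-late glands 3 rose and 1 fell, and in the other 2 comparisons 0 passed. Of all probe sets, 5.41% rose and 4.61% fell in late regressed against mid-late glands. Of the genes with a mean of at least 6, the shares were 12.7% and 4.6%. The counts are therefore no result about the list as a whole. GLUL, which makes glutamine, read 9.48, 9.74, 10.08 and 9.50 in late regressed, 8.89, 9.02, 8.92 and 9.43 in late functional, and 8.44, 8.40, 8.53 and 8.69 in mid-late glands. The 3 groups formed an order in which late regressed glands lay wholly above both others, and the difference from mid-late was 1.18 (SE 0.151, adjusted p 0.00548). FTL, a subunit of the iron store ferritin, was higher by 0.75 (adjusted p 0.0231), and MT1E, a metallothionein that binds zinc and copper, by 1.00 (adjusted p 0.0212). The metallothioneins MT1X and MT2A were not called, with differences of 0.14 (adjusted p 0.592) and -0.80 (adjusted p 0.348). ATP1B1, a subunit of the sodium pump that powers sodium-coupled carriers, was lower by 0.64 (adjusted p 0.0317). BSG, which escorts SLC16A1 to the cell surface, differed by -0.20 with an adjusted p of 0.517.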

How the data were processed

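RNA of 12 corpora lutea was hybridized to Affymetrix rhesus macaque arrays, 1 gland to an array. The deposited values are log2 intensities per probe set made by the authors with RMA (settings and version not given in the sources used here), per the submitters' processing notes. Of 52865 probe sets, 158 controls were left out. The other 52707 entered 1 linear model of 3 group means over all 12 arrays (limma 3.58.1 under R 4.3.3, eBayes moderation, two-sided). Benjamini-Hochberg adjustment covered every probe set, with calls made below 0.05. Precision is limited by the number of arrays. The code was tested on simulated data.

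A gene was read on its probe set with the highest mean among those annotated with 1 symbol; 46 of the 87 carriers have several. The Entrez IDs of all 87 were found in a RefSeq table of rhesus macaque genes with the same symbols. Named carriers are those called in any comparison, a list of well-known carriers, and the 2 with the highest signal in each class; others named, among them SLC44A3, SLC47A1, SLCO3A1, SLC66A3 and SLC38A6, were chosen after their values were seen. The members, lists and classes were chosen with earlier results of these data known. On the list of well-known carriers, SLC3A2, SLC38A2, SLC30A1, SLC12A2, SLC11A2 and SLC44A1 were not analysed here. Normalization, filters, priors, array weights, covariates, a replicate block and leaving out arrays were tried as alternatives.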

Additional observations from a re-analysis of the deposited data

Results flagged for a closer look

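A gland was set apart when its gap to the nearest of the other 3 glands of its group, divided by the range of the group, exceeded Dixon's critical value of 0.829. This was done for the named carriers in each group, 108 groups in all, of which 8 were past it; chance alone marks about 5% of groups. Of the 8, 4 were on late functional array 4. There the iron exporter SLC40A1 read 10.85, against 9.69 to 9.80 in the other 3 glands. The metal pump SLC11A1 read 8.70, against 8.24 to 8.32, and SLC16A9 read 7.44, against 6.67 to 6.73. SLC35B1 was low on the same array, at 8.59 against 9.03 to 9.08. In late regressed glands, array 1 read 8.61 for SLC50A1, against 8.21 to 8.24 on the others. In mid-late glands, array 1 read 9.54 for SLC43A3, against 8.61 to 8.74, and 11.40 for SLC4A7, against 11.28 to 11.29, and array 3 read 11.04 for SLC38A10, against 11.11 on the others.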

How the results depend on the processing

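The counts of carriers called moved with the array left out and with the model. In late regressed against mid-late glands, 7 rose and 5 fell as reported. Leaving out 1 array gave 1 to 10 that rose and 0 to 11 that fell, 0 to 4 called in late regressed against late functional glands, 0 that rose and 0 to 1 that fell in late functional against mid-late glands, and 0 to 20 by the F test, against 5 as reported. Without late regressed arrays 2 and 3, 1 rose, 1 fell, 4 rose in late functional against mid-late glands and 3 passed the F test. With only the 2 compared groups fitted, 2 rose and 3 fell, and 6 rose in late functional against mid-late glands. Array weights gave 3, 3 and 4 in the same order, and 1 lower in late functional glands. Renewed quantile normalization left 3 that rose, median centring 3 that fell, and a 2-fold minimum 3 and 0. The F test called 3 with a trended and robust prior, 2 with the 3' minus 5' difference as covariate, and 0 with the NC mean, which also left 0 and 0 in late regressed glands. Shares of all probe sets called under these alternatives are mostly not given here, so the counts are no result about carriers as a group. The causes were not tested.

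With the replicate number as a block, 6 rose and 4 fell in late regressed against mid-late glands, 0 were called in the other 2 comparisons, and 4 passed the F test. Same-numbered glands did not deviate together in general: 3 of 12 pairs had a correlation of their deviations over 0.1, with a range of -0.12 to 0.30. No called difference changed sign under any alternative run.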

Other observations

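Among the 166 solute carriers whose mean lay below the limit of 6, 3 rose and 7 fell in late regressed against mid-late glands. These are 1.81% and 4.22%, against 5.41% and 4.61% of all probe sets. In late functional against mid-late glands 2 rose and 1 fell, or 1.2% and 0.602%, against 0.332% and 0.56% of all probe sets. The counts are small and are no result about these carriers as a group. SLC38A1, an importer of glutamine, read 5.17, 6.45, 6.51 and 5.86 in late regressed, 4.96, 5.14, 5.36 and 5.37 in late functional, and 4.94, 4.98, 5.02 and 4.81 in mid-late glands. Its late regressed values lay wholly above the mid-late ones, by 1.06 with a limma adjusted p of 0.0234. SLC26A10 was called in both comparisons, at 5.99 to 6.36 in late regressed and 5.78 to 6.39 in late functional glands, against 4.94 to 5.34 in mid-late glands. SLC16A7, a lactate and pyruvate carrier, was called lower in both, but its mean of 3.89 lies below the 95th percentile of the NC probe sets, whose mean is itself lower in both late groups.

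Several carriers that many tissues depend on were read below the limit and were not called in any comparison. The glucose facilitators SLC2A1 and SLC2A8 differed by 0.10 (adjusted p 0.562) and 0.13 (adjusted p 0.348) in late regressed against mid-late glands. The lactate exporter SLC16A3 differed by 0.36 (adjusted p 0.425), with late regressed array 3 at 7.01 and the other 11 arrays at 5.35 to 5.86. The amino acid carriers SLC1A5, SLC7A5 and SLC7A11 differed by 0.10 (adjusted p 0.577), 0.02 (adjusted p 0.959) and 0.40 (adjusted p 0.403). SLC6A6, the taurine importer, read 6.15 and 5.77 on late regressed arrays 3 and 4, and 3.86 to 4.80 on the other 10 arrays. SLC29A1, a nucleoside carrier of the plasma membrane, and the zinc carrier SLC39A14 differed by 0.34 (adjusted p 0.203) and 0.32 (adjusted p 0.541). SLC4A4, SLC5A3 and SLC23A2 had means of 3.59, 4.00 and 4.01, below the 95th percentile of the NC probe sets.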
